A study of Mus musculus with 4 samples.

Results

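The 10 genes described here encode the lipopolysaccharide co-receptor CD14 and 9 Toll-like receptors of the mouse. They were taken by symbol from 23284 gene rows, and all 10 symbols were found. Cd14, Tlr1, Tlr2, Tlr4 and Tlr6 form the surface group, and Tlr3, Tlr7, Tlr8, Tlr9 and Tlr13 the endosomal group. RNA came from macrophages grown in culture from mouse bone marrow, in 4 libraries: Spic-/- with LPS, control (Spic+/+) with LPS, Spic-/- without LPS and control without LPS. LPS (lipopolysaccharide) was given at 100 ng/ml for 4 h. Hemin, the oxidised form of heme, preceded it for 18 h in every culture, the control ones and those without LPS included, at a dose that the labels give as 40 µM in one place and 40 mM in another. The targeted gene, Spic, codes for the Ets-family DNA-binding protein Spi-C. The titles write cKO for the knockout, and the labels name neither the allele, a Cre driver nor the number of mice. With 1 library in each group, nothing below could be set against a spread between replicates, and no p-values or standard errors were computed.

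Toll-like receptors are membrane proteins that bind microbial molecules and start inflammatory signalling. Surface members bind lipids: TLR4 recognises LPS together with CD14, which delivers it, and with the protein made from Ly96. TLR2 recognises bacterial lipoproteins as a heterodimer with TLR1 or TLR6. Endosomal members bind nucleic acids, with TLR3 sensing double-stranded RNA, TLR7 and TLR8 single-stranded RNA, TLR9 unmethylated DNA and TLR13 bacterial ribosomal RNA. In macrophages most of them signal through MYD88, whereas TLR3 uses TICAM1 and TLR4 uses both.

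The unit throughout is FPKM (per kilobase of exon, scaled to library size), in which levels of different genes can be compared per length. Steps between the lowest values put 1 FPKM at about 8.07, 10.6, 12.95 and 15.6 fragments per kilobase in Spic-/- with LPS, control with LPS, Spic-/- without LPS and control without LPS. Members then rested on about 27 to 53485 fragments each. The 95% intervals below are exact (Clopper-Pearson) intervals from these estimates and hold counting error alone, with none of the variation from culture to culture. Ratios on a log2 scale are of FPKM + 1, which makes differences of low genes look smaller. Higher and lower below mean 2-fold or more on that scale where counts of genes are given, among genes that reached 5 FPKM in either library compared. Spic itself stood at 80.8 FPKM in Spic-/- with LPS and 406 FPKM in control with LPS, and at 14.98 FPKM in Spic-/- and 53.1 FPKM in control without LPS. It was thus lower in Spic-/- than in the matched control but not absent, with about 1013 and 301 fragments, and with LPS its level in Spic-/- was 5.39 times that without LPS and above that of untreated control. Whether these fragments cover the deleted part cannot be told from gene-level values, so Spic-/- is used here as the labels give it. All 10 macrophage markers were detected in every library, with Csf1r between 265 and 371 FPKM, Cd68 between 565 and 789 FPKM and Mertk, the lowest, between 6.85 and 18.5 FPKM. Mertk was lower with LPS in control (log2 ratio −1.32) and at −0.82 in Spic-/-. Between genotypes 9 of the 10 had a log2 ratio above 0 with LPS and 8 without, while Lyz2, the highest, was at −0.72 and −0.66. The plasmacytoid dendritic cell gene Siglech was listed at 0 in all 4 libraries. The summed level of 6 B cell markers was 1.34 to 4.61 FPKM, of 6 conventional dendritic cell markers 0.253 to 0.715 FPKM and of 6 T and NK cell markers 0.882 to 1.76 FPKM. The 7 neutrophil markers summed to 30.8 to 239 FPKM, mostly from S100a8 and S100a9, while Mpo was at 0 in every library. The 6 plasmacytoid dendritic cell markers summed to 288 to 685 FPKM, almost all from Bst2, which is also an interferon-stimulated gene. Stromal markers differed by genotype: the 10 genes summed to 427 FPKM in Spic-/- and 734 FPKM in control with LPS, and to 375 FPKM in Spic-/- and 757 FPKM in control without LPS. The part of these marker differences in the receptor values was not tested. In RNA from whole cultures, fewer cells of a type and less RNA per cell cannot be told apart.

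Without LPS, most of the summed level of the 9 Tlr genes came from endosomal receptors. In Spic-/- without LPS the order of levels was Cd14 (234 FPKM), Tlr13 (188), Tlr7 (48.9), Tlr8 (47.0), Tlr2 (36.9), Tlr4 (28.7), Tlr1 (12.6), Tlr6 (7.85), Tlr9 (5.94) and Tlr3 (5.66). In control without LPS it was Tlr13 (182 FPKM), Cd14 (114), Tlr8 (44.4), Tlr7 (35.8), Tlr2 (28.8), Tlr4 (28.5), Tlr1 (9.06), Tlr6 (5.78), Tlr3 (5.11) and Tlr9 (4.68). Neighbours that counting error could not separate were Tlr7 with Tlr8 and Tlr9 with Tlr3 in Spic-/-, and Tlr2 with Tlr4, Tlr6 with Tlr3 and Tlr3 with Tlr9 in control. With LPS the order began with Cd14, Tlr2 and Tlr7 in each genotype and ended with Tlr9. There Tlr4 with Tlr3 in Spic-/- and Tlr3 with Tlr6 in control were the neighbours that could not be separated. The remaining Toll-like receptor genes of the mouse were close to absent: Tlr5 was at most 0.207 FPKM, Tlr11 at most 0.157 FPKM, and Tlr12 was listed at 0 in all 4 libraries.

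**Figure D1:**
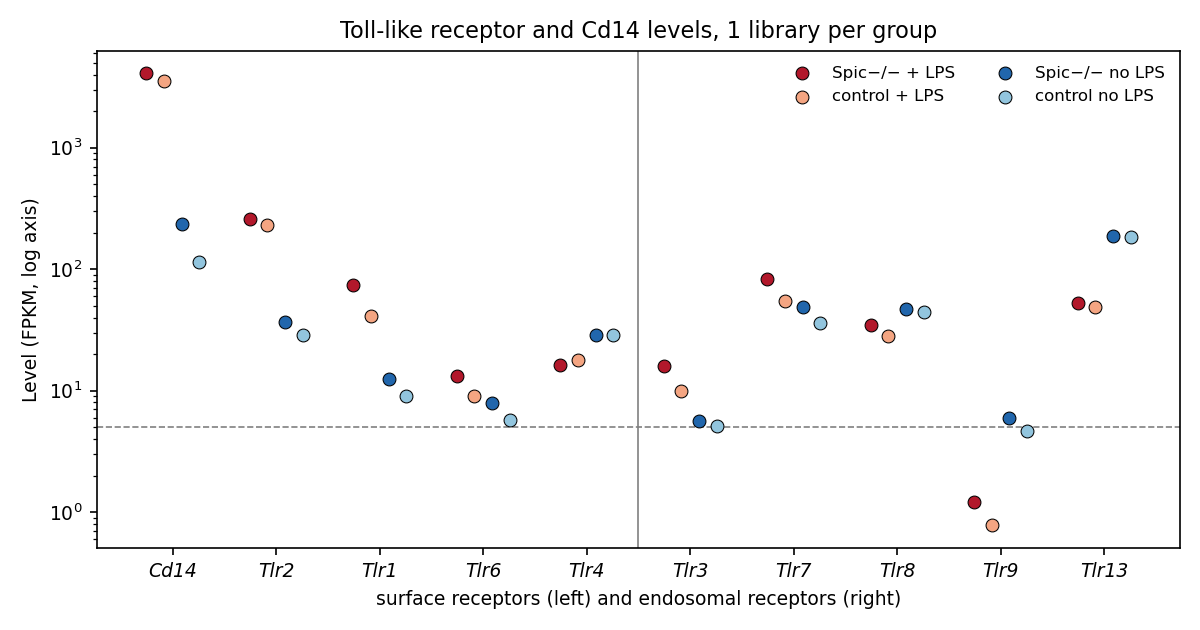
FPKM (log axis) of each of the 10 genes in the 4 libraries, 1 point per library, surface genes left of the vertical line and endosomal genes right of it, with the 5 FPKM minimum dashed. With LPS, Cd14 stood at 4092 FPKM in Spic-/- and 3523 FPKM in control, whereas Tlr9 stood at 1.22 and 0.78 FPKM.

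Promoter windows from RefSeq (GRCm38.p6, 250 bases before to 50 after a start site) were searched for 7 of the 10 genes, in 9 windows. No window of Cd14, Tlr4 or Tlr7 was searched, so the counts of member windows below do not cover these genes. 3 short motifs were searched on both strands. GAGGAA, the core of sites bound by PU.1-type Ets factors, occurs in 28.3% of all 32851 windows. An NF-kB site of 10 letters occurs in 1.20%, and a core of the interferon-stimulated response element, also of 10 letters, in 3.44%. Of the 9 windows, 4 held the Ets core (Tlr1, Tlr8, Tlr9 and Tlr13), 2 the NF-kB form (Tlr2 and Tlr3) and 1 the interferon form (Tlr6, with 2 overlapping matches). The NF-kB match began 172 bases before the start site in Tlr2 and 211 bases before it in Tlr3. The Ets core began 112 bases before the start site and, on the other strand, 12 bases after it in Tlr9, and 83 bases before it in Tlr13. These are matches of letters, not measured binding. The motifs were chosen after the promoter letters had been read, so the member counts beside the shares over all windows test nothing. The 4 windows below are both that held the NF-kB form and those of the genes most reduced with LPS, and capitals mark the matches.
Tlr2 (chr3:83841559-83841858, minus strand): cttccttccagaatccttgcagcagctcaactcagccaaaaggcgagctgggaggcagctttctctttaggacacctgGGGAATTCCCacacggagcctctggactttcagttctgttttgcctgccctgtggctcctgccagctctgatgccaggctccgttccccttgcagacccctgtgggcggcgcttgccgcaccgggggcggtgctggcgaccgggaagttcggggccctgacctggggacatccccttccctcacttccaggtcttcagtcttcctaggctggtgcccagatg
Tlr3 (chr8:45410331-45410630, minus strand): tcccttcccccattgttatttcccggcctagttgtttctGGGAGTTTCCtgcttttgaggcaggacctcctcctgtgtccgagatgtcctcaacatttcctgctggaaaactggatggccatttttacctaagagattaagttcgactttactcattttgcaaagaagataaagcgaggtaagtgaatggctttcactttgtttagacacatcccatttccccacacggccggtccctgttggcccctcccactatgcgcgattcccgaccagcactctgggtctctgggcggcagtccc
Tlr9 (chr9:106222348-106222647, plus strand): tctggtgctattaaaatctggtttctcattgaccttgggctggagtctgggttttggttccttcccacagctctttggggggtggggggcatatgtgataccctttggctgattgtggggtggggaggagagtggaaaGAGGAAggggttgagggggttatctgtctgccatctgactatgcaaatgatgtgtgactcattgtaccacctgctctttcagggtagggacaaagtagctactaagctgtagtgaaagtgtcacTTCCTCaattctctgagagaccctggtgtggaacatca
Tlr13 (chrX:106143025-106143324, plus strand): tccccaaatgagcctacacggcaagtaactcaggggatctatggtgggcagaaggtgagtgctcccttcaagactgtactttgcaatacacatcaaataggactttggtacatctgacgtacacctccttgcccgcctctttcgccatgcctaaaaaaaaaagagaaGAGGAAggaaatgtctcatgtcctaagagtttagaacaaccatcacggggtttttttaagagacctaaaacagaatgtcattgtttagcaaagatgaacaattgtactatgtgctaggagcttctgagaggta

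The genes lie on 7 chromosomes (GENCODE vM21, GRCm38). Tlr1 (chr5:64924679-64933563) and Tlr6 (chr5:64952031-64960097) are neighbours on the minus strand, 18.5 kb apart. Tlr7 (chrX:167304929-167330558) and Tlr8 (chrX:167242696-167264329) are likewise neighbours on the minus strand, 40.6 kb apart, and Tlr13 (chrX:106143204-106160493, plus strand) lies elsewhere on the X chromosome. Tlr2 lies at chr3:83836272-83841767, Tlr4 at chr4:66827584-66930284, Tlr3 at chr8:45395665-45411080, Tlr9 at chr9:106222598-106226883 and Cd14 at chr18:36725067-36726798. Tlr3 overlaps the antisense gene Gm45542, and the labels do not say whether strand was used in counting. Among all 45 pairs of member transcripts, Tlr1 and Tlr6 alone share long sequence. Their longest identical stretch was 229 bases, and the next longest of any pair was 18 bases. Of the 50-base windows of the Tlr1 transcript, 15.3% occur in Tlr6, and of those of Tlr6, 12.51% occur in Tlr1. The split of fragments between Tlr1 and Tlr6 is therefore uncertain to that extent.

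LPS went with higher levels of most surface genes and with a split among the endosomal genes. In Spic-/- cells 4 of 10 members were higher and 2 lower, where 13.7% and 7.74% of 8098 genes were. In control cells 3 were higher and 1 lower, where 12.3% and 6.5% of 8050 genes were. Over the 10 members the median log2 ratio was 0.72 in Spic-/- and 0.59 in control, against 0.12 and 0.11 over all genes. Upper-quartile scaling moved the medians over all genes to −0.16 in Spic-/- and −0.15 in control, and the share of higher genes among all calls to 44.3% and 47.7%, against 63.9% and 65.5% as deposited. No member took the other sign under it. Summed FPKM over all genes was itself higher with LPS, at 819232 against 525348 in Spic-/- and 736818 against 500123 in control. Relative to that sum every LPS ratio below would be lower, and such ratios were not computed. At 1.5-fold, 5 members were higher and 3 lower in control, where 23.1% and 15.1% of genes were.

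Cd14 had the largest LPS ratio of the 10 genes in each genotype. It stood at 4092 FPKM in Spic-/- and 3523 FPKM in control with LPS, and at 234 FPKM in Spic-/- and 114 FPKM in control without LPS. Both LPS-treated libraries were thus far above both untreated ones. The FPKM ratio was 17.5 in Spic-/- (interval 17.0 to 18.1) and 31.0 in control (29.8 to 32.3). It ranked 103rd highest of 8098 genes in Spic-/- and 63rd of 8050 in control.

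Tlr4, the signalling receptor for LPS, went the other way. It stood at 16.2 FPKM in Spic-/- and 18.0 FPKM in control with LPS, and at 28.7 FPKM in Spic-/- and 28.5 FPKM in control without LPS. Both treated libraries were below both untreated ones, and the FPKM with LPS was 56.6% of that without it in Spic-/- (ratio interval 0.51 to 0.626) and 63.1% in control (0.578 to 0.688). These are under the 2-fold threshold as deposited, and in Spic-/- past it after upper-quartile scaling (log2 ratio −1.05). The Cd14 to Tlr4 ratio of FPKM was 252 in Spic-/- and 195.6 in control with LPS, against 8.15 in Spic-/- and 3.98 in control without LPS. The corresponding ratio of Ly96 to Tlr4 was 5.17 and 4.48 with LPS, against 2.003 and 1.97 without.

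Tlr2 was the second most induced member, and its partners were unequal. Tlr2 stood at 258 FPKM in Spic-/- and 229.9 FPKM in control with LPS, and at 36.9 FPKM in Spic-/- and 28.8 FPKM in control without LPS, a ratio of 7.01 (6.600 to 7.44) in Spic-/- and 7.99 (7.52 to 8.49) in control. Tlr1, its partner for triacylated lipoproteins, stood at 74.7 FPKM in Spic-/- and 41.5 FPKM in control with LPS, and at 12.6 FPKM in Spic-/- and 9.06 FPKM in control without LPS. The Tlr1 ratio was 5.94 (5.36 to 6.60) in Spic-/- and 4.58 (4.09 to 5.14) in control. Tlr6, the partner for diacylated lipoproteins, had the smallest ratio of the trio. It stood at 13.3 FPKM in Spic-/- and 9.03 FPKM in control with LPS, and at 7.85 FPKM in Spic-/- and 5.78 FPKM in control without LPS. Its ratio was 1.69 (1.46 to 1.96) in Spic-/- and 1.56 (1.34 to 1.83) in control, under the 2-fold threshold. Tlr1 therefore stood at 5.63 times Tlr6 in Spic-/- and 4.60 times in control with LPS, and at 1.602 and 1.57 times without. The neighbouring genes Tlr1 and Tlr6 are the pair with shared sequence described above.

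Among endosomal genes, Tlr13 and Tlr9 were lower with LPS. Tlr13 stood at 52.5 FPKM in Spic-/- and 49.0 FPKM in control with LPS, and at 188 FPKM in Spic-/- and 182 FPKM in control without LPS. The level with LPS was 27.9% of that without it in Spic-/- (ratio interval 0.264 to 0.294) and 26.9% in control (0.256 to 0.282). Tlr13 was 148th lowest of 8098 genes in Spic-/- and 113th lowest of 8050 in control. Tlr9 stood at 1.22 FPKM in Spic-/- and 0.78 FPKM in control with LPS, and at 5.94 FPKM in Spic-/- and 4.68 FPKM in control without LPS. The level with LPS was 20.5% (interval 0.136 to 0.295) and 16.7% (0.108 to 0.249) of that without it. About 32 and 27 fragments lay behind the treated Tlr9 values. In control, Tlr9 was just under the 5 FPKM minimum and so not counted as lower there, and with a pseudocount of 5 FPKM its log2 ratio in Spic-/- was −0.82, under 2-fold.

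Tlr3, Tlr7 and Tlr8 took intermediate ratios. Tlr3 stood at 15.9 FPKM in Spic-/- and 9.89 FPKM in control with LPS, and at 5.66 FPKM in Spic-/- and 5.11 FPKM in control without LPS. Its ratio was 2.81 (2.44 to 3.24) in Spic-/- and 1.94 (1.68 to 2.24) in control, so it was past 2-fold in Spic-/- and just under it in control, and in Spic-/- also under it with a pseudocount of 5 FPKM (log2 ratio 0.97). Tlr7 stood at 83.3 FPKM in Spic-/- and 55.2 FPKM in control with LPS, and at 48.9 FPKM in Spic-/- and 35.8 FPKM in control without LPS. Tlr8, its neighbour on the X chromosome, was at 34.6 FPKM in Spic-/- and 28.0 FPKM in control with LPS, and at 47.0 FPKM in Spic-/- and 44.4 FPKM in control without LPS. The LPS ratio of Tlr7 was 1.70 (1.61 to 1.80) in Spic-/- and 1.54 (1.45 to 1.64) in control, and that of Tlr8 was 0.736 (0.679 to 0.797) and 0.631 (0.584 to 0.681). As deposited, these adjacent genes thus lay on opposite sides of 1 in each genotype, each within 2-fold. Both statements held under upper-quartile scaling, with log2 ratios in Spic-/- and control of 0.48 and 0.37 for Tlr7 and −0.71 and −0.89 for Tlr8. Relative to summed FPKM, which was higher with LPS, each ratio would be lower, and such ratios were not computed. Tlr7 stood at 2.41 times Tlr8 in Spic-/- and 1.97 times in control with LPS, and at 1.04 and 0.806 times without.

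**Figure D2:**
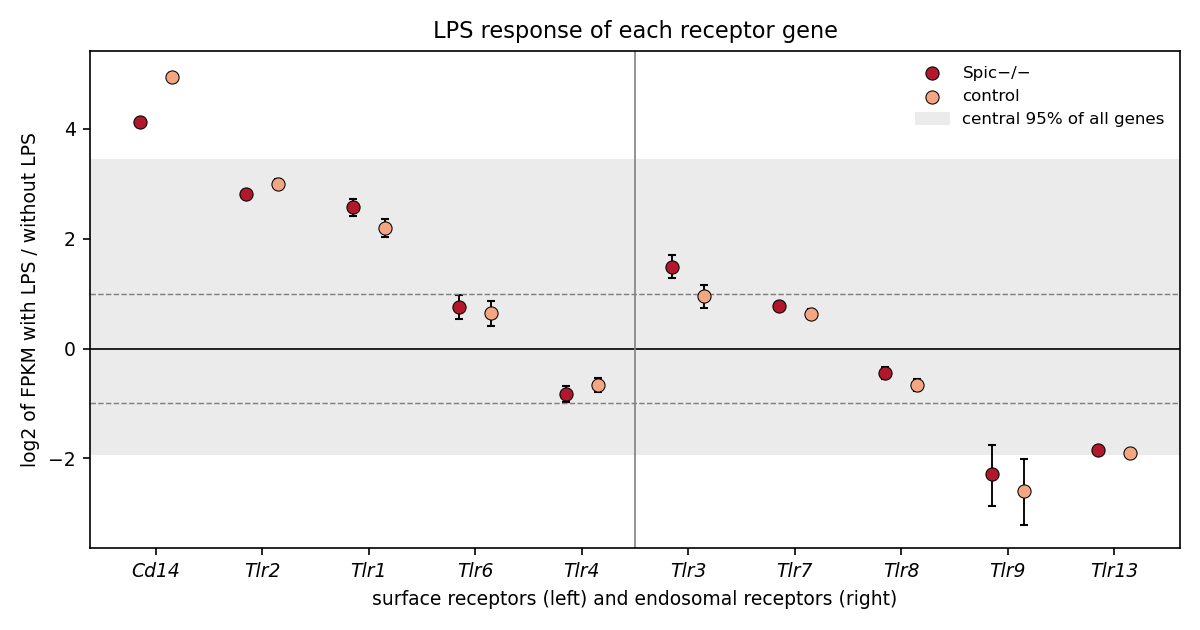
log2 of the FPKM ratio with LPS over without LPS (no pseudocount) for each gene, Spic-/- left of control, with 95% counting intervals, dashed lines at 2-fold and the central 95% of genes at 5 FPKM or more shaded (the wider of both genotypes). Cd14, Tlr2 and Tlr1 lie above 2-fold and Tlr13 and Tlr9 below it in each genotype, and Tlr4 lies below 0 among the surface genes.

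The surface and endosomal groups differed most under LPS. The median log2 ratio of the surface genes was 2.48 in Spic-/- and 2.08 in control, against −0.43 and −0.65 for the endosomal genes. The difference of medians was 2.91 in Spic-/- and 2.73 in control, and it was 2.02 and 1.97 without Cd14. The groups overlapped in range, since Tlr4 among the surface genes lay below Tlr3 and Tlr7 among the endosomal ones. The ratio of summed FPKM of surface to endosomal genes, which does not depend on library scaling, was 23.8 in Spic-/- and 26.7 in control with LPS, against 1.08 in Spic-/- and 0.682 in control without LPS. Without Cd14 it was 1.93 and 2.09 with LPS, against 0.291 and 0.265 without. Summed over the 9 Tlr genes, levels were 549.9 FPKM in Spic-/- and 441 FPKM in control with LPS, against 382 FPKM in Spic-/- and 345 FPKM in control without LPS. As a share of all summed FPKM in the library the order was the other way, with 0.0671% in Spic-/- and 0.0599% in control with LPS, against 0.0727% and 0.0689% without, so the direction of the total depends on the scaling. Within that sum Tlr2 took 47.0% in Spic-/- and 52.1% in control with LPS, against 9.66% and 8.35% without. Tlr13 took 9.54% and 11.1% with LPS, against 49.3% and 52.9% without. The leading receptor transcript by level was thus Tlr2 in both treated libraries and Tlr13 in both untreated ones.

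**Figure D3:**
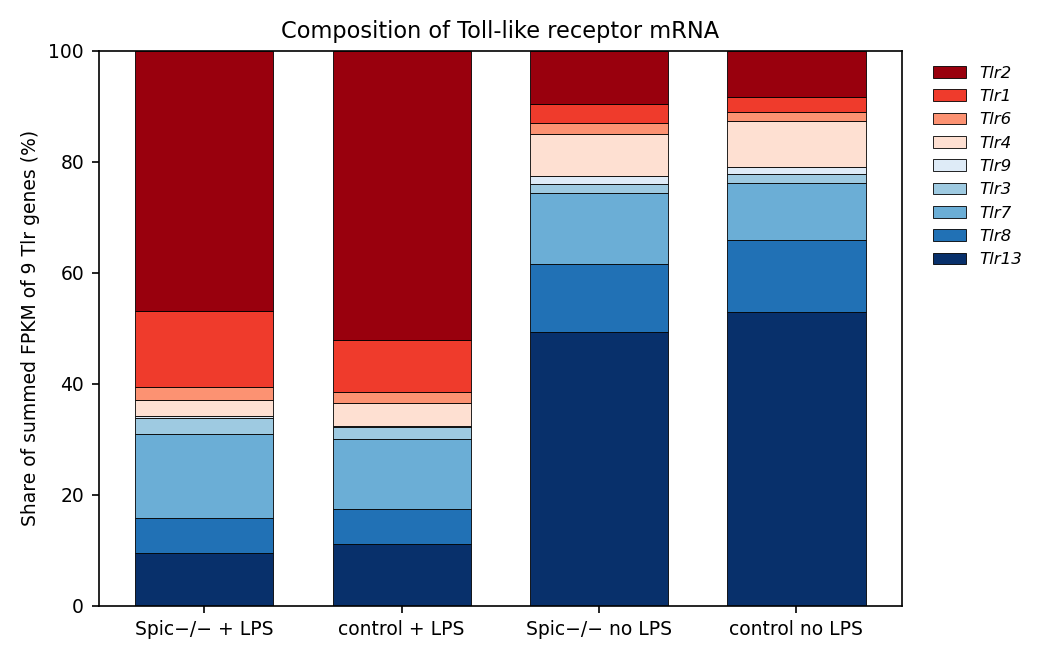
Share of each of 9 Tlr genes in their summed FPKM (%, stacked bars from 0) in the 4 libraries, endosomal genes in blue and surface genes in red. The surface share was 65.9% in Spic-/- and 67.6% in control with LPS, against 22.5% and 20.9% without LPS.

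Without LPS, the members were within 1.5-fold between Spic-/- and control, with Cd14 as the exception, though 7 of the 10 counting intervals lay above 1. Cd14 was at 234 FPKM in Spic-/- and 114 FPKM in control, a ratio of 2.06 (1.96 to 2.16), 34th highest of 7762 genes. It was the only member at 2-fold, where 0.49% of genes were higher and 0.412% lower, and it was just under 2-fold after median-ratio (log2 ratio 0.99) and upper-quartile scaling (0.92). The next ratios were 1.39 for Tlr1 (1.21 to 1.59), 1.37 for Tlr7 (1.29 to 1.45), 1.36 for Tlr6 (1.16 to 1.59), 1.28 for Tlr2 (1.19 to 1.39) and 1.27 for Tlr9 (1.06 to 1.53). By log2 ratio these lay above 96.4%, 96.6%, 95.3%, 93.9% and 90.5% of all genes, and Tlr4, the lowest member, above 32.9%. Tlr3 was at 1.11 (0.948 to 1.30), Tlr8 at 1.06 (0.996 to 1.12), Tlr13 at 1.03 (1.004 to 1.06) and Tlr4 at 1.005 (0.936 to 1.08). The log2 ratio was above 0 for all 10 members as deposited, but for 9 after median-ratio scaling, where Tlr4 had the other sign, and for 7 after upper-quartile scaling, where Tlr4, Tlr8 and Tlr13 did. The median over the members was 0.32, against 0.07 over all genes. With upper-quartile scaling the median over all genes was −0.04, and 43.3% of all calls were higher, against 54.3% as deposited.

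With LPS, none of the 10 members was 2-fold apart between the genotypes, where 0.493% of 7509 genes were higher and 0.4% lower. At 1.5-fold, 3 members were higher (Tlr1, Tlr3 and Tlr7) and none lower, where 2.86% of genes were higher and 1.69% lower. Tlr1 was at 74.7 FPKM in Spic-/- and 41.5 FPKM in control, a ratio of 1.80 (1.67 to 1.94), 64th highest of 7509 genes. Tlr3 was at 15.9 FPKM in Spic-/- and 9.89 FPKM in control, a ratio of 1.61 (1.42 to 1.83), and Tlr7 at 83.3 and 55.2 FPKM, a ratio of 1.51 (1.42 to 1.60). Tlr6 had a ratio of 1.47 (1.26 to 1.71), Tlr8 of 1.23 (1.13 to 1.35), Cd14 of 1.16 (1.15 to 1.18), Tlr2 of 1.12 (1.08 to 1.16) and Tlr13 of 1.07 (1.002 to 1.14). Tlr9, at 1.22 FPKM in Spic-/- and 0.78 FPKM in control, had 1.56 with an interval of 0.904 to 2.70, so no difference was detectable at this depth. Tlr4 was the member below 1, at 0.9001 (0.802 to 1.009), and Tlr13 also had a log2 ratio below 0 after upper-quartile scaling. The difference of the surface and endosomal medians was −0.10 with LPS and 0.26 without LPS, so the genotypes did not separate these groups as LPS did. Without Cd14 the value with LPS was 0.02. Over all genes the median was 0.09, with 55.2% of calls higher. With upper-quartile scaling these became −0.06 and 39.1%.

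**Figure D4:**
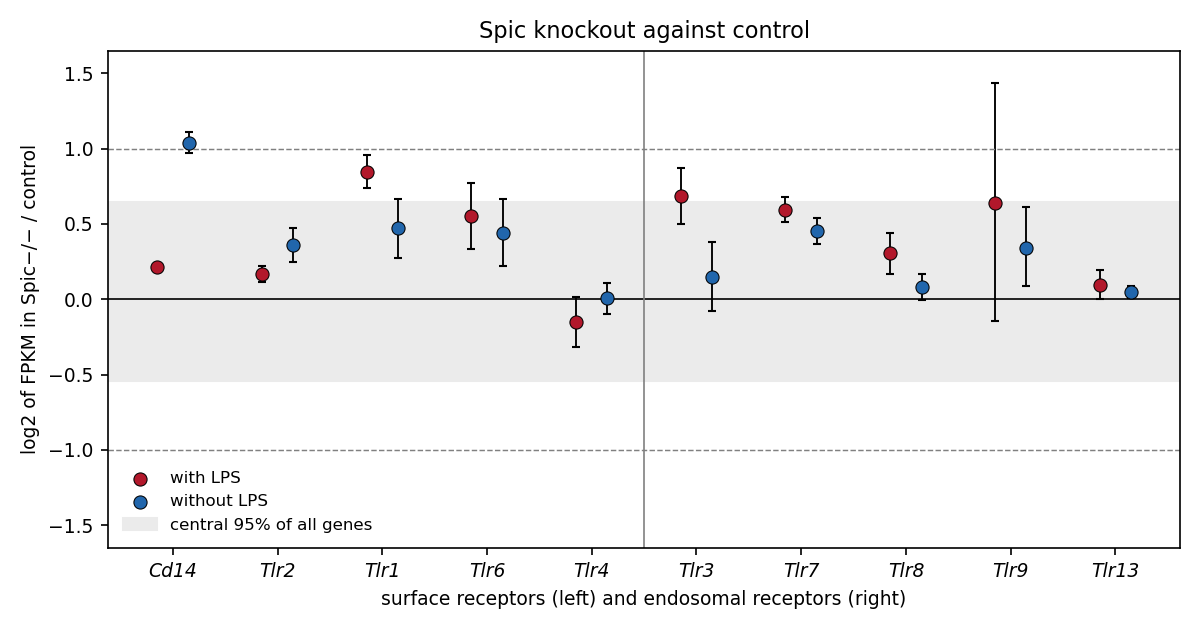
log2 of the FPKM ratio of Spic-/- over control (no pseudocount) for each gene, with LPS left of without LPS, with 95% counting intervals, dashed lines at 2-fold and the central 95% of genes at 5 FPKM or more shaded (the wider of both LPS states). Cd14 without LPS and Tlr1 and Tlr3 with LPS lie above the shaded range, and Tlr4 lies near 0.

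The LPS responses of the genotypes were also subtracted for each gene, knockout minus control on the log2 scale. Over 8272 genes the central 95% of these differences ran from −0.49 to 0.47. Cd14 lay below that range at −0.82, with LPS log2 ratios of 4.13 in Spic-/- and 4.94 in control. Tlr3 lay above it at 0.51, with 1.34 in Spic-/- and 0.83 in control. Tlr1 was at 0.40, inside the range as computed and outside it with a pseudocount of 5 FPKM (0.45). The other 7 members lay between −0.18 (Tlr2) and 0.22 (Tlr8). The difference uses all 4 libraries, which the genotype and LPS ratios above share, and an additive fit leaves 1 residual degree of freedom, the difference itself, so it could not be tested.

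Genes that work beside the receptors are given by list, counting those with at least 1 FPKM in at least 1 library. Calls and the shares over all genes need 5 FPKM in either library compared. A list gene under that minimum stayed in the count of its list but could not be called. Of 8 LPS recognition partners, none was 2-fold higher with LPS, where 13.7% of all genes in Spic-/- and 12.3% in control were. None was lower in Spic-/- and 1 was lower in control, where 7.74% and 6.5% of all genes were. That gene was Cd180, a receptor-like regulator of TLR4 signalling, at 97.2 FPKM in Spic-/- and 74.2 FPKM in control with LPS, against 173 and 172 FPKM without. Ly96 was at 83.8 and 80.8 FPKM with LPS, against 57.4 and 56.3 FPKM without, and Lbp, which encodes the LPS-binding protein, at 1.93 and 2.32 FPKM, against 0.667 and 0.911 FPKM. Lbp was under the 5 FPKM minimum and so could not be called, with log2 ratios of 0.81 in Spic-/- and 0.80 in control. Between genotypes the integrin gene Itgam had log2 ratios of 0.44 with LPS and 0.42 without, Ly86, whose product binds CD180, of 0.30 and 0.41, and Cd180 of 0.38 and 0.01.

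Folding, trafficking and processing genes of the endosomal receptors mostly gave LPS ratios within 2-fold on the scale of FPKM + 1. Of 8 folding and trafficking genes, none was 2-fold higher, 1 was lower in Spic-/- (Cnpy4, log2 ratio −1.09) and none in control. Of all genes, 13.7% were higher and 7.74% lower with LPS in Spic-/-, and 12.3% and 6.5% in control. Cnpy3, a chaperone of Toll-like receptors, was at 22.7 and 18.4 FPKM with LPS, against 44.0 and 37.7 FPKM without. Its log2 ratios of FPKM + 1 were −0.927 in Spic-/- and −0.997 in control, just within 2-fold. Without the added 1 FPKM, the control values were past 2-fold. The adaptor complex gene Ap3b1 had log2 ratios of 0.79 and 0.62. Unc93b1, which carries nucleic acid-sensing receptors to endosomes, was at 261 FPKM in Spic-/- and 204 FPKM in control with LPS, against 241 and 199.96 FPKM without. Unc93b1 was thus 4.98 and 4.16 times Tlr13 with LPS, against 1.28 and 1.10 times without. Rnf170 had log2 ratios between genotypes of −0.31 with LPS and −0.07 without. None of the 5 endosomal protease genes was 2-fold apart in any comparison, with LPS log2 ratios of −0.48 and −0.36 for Ctsl, −0.30 and −0.28 for Lgmn and −0.25 and −0.21 for Ctsk in Spic-/- and control. Of 5 nuclease and nucleic acid handling genes, 2 were higher with LPS in each genotype, where 13.7% of all genes in Spic-/- and 12.3% in control were: Acp5, the tartrate-resistant phosphatase gene (175 and 132 FPKM, against 50.2 and 36.2 FPKM), and the ribonuclease gene Rnaset2b (14.8 and 15.5 FPKM, against 2.98 and 3.89 FPKM). Rnaset2b has a near-identical copy, so its value is uncertain. Dnase2a was at −0.66 and −0.80 on the log2 scale, and Pld4 had ratios between genotypes of 0.34 with LPS and 0.40 without.

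Genes of the signalling steps downstream of the receptors came next. Of 11 adaptor and kinase genes, 4 were higher with LPS in Spic-/- and 5 in control, where 13.7% and 12.3% of all genes were, none was lower, and the medians were 0.64 and 0.65. Irak3, which encodes the inhibitory kinase-like protein IRAK-M, had log2 ratios of 2.79 and 2.86, Irak2 of 2.52 and 2.34 and the TRIF-related adaptor gene Ticam2 of 2.19 and 1.91. Of these 11, Wdfy1 alone was 2-fold apart between genotypes, and its product has been reported to aid TLR3 and TLR4 signalling. It stood at 9.35 FPKM in Spic-/- and 3.15 FPKM in control with LPS and at 8.75 and 2.65 FPKM without. Between genotypes, 0.493% of all genes were higher and 0.4% lower with LPS, and 0.49% and 0.412% without. Ticam1, the TLR3 adaptor gene, had ratios between genotypes of 0.23 with LPS and 0.51 without. None of 3 receptor-level inhibitors was 2-fold higher or lower with LPS. Of all genes, 13.7% were higher and 7.74% lower in Spic-/-, and 12.3% and 6.5% in control. LPS log2 ratios were 0.76 and 0.70 for Pik3ap1, 0.63 and 0.51 for Tollip and 0.29 and −0.02 for Rnf216. Of 7 cytosolic nucleic acid sensor genes, 4 were higher in each genotype, where 13.7% of all genes in Spic-/- and 12.3% in control were, with medians of 1.10 in Spic-/- and 1.27 in control, against −0.43 and −0.65 for the endosomal receptors. Ifih1, a sensor of double-stranded RNA, had log2 ratios of 3.66 and 3.68, Zbp1 of 2.22 and 2.36 and Ddx58, the RIG-I gene, of 1.86 and 1.67. Zbp1 was 0.65 with LPS and 0.79 without LPS between genotypes, and Dhx58 0.43 and 0.60. An LPS reference list held 8 genes picked as LPS-induced with earlier results of these data known, so their count tests nothing. All 8 were higher in each genotype, where 13.7% of all genes in Spic-/- and 12.3% in control were. The largest log2 ratios were those of Il1b at 10.12 and 11.25, Il6 at 8.82 and 8.98 and Cxcl10 at 8.72 and 8.66. Of that list Il1b alone was called 2-fold higher in Spic-/- without LPS (6.70 FPKM, against 1.37 FPKM in control), where 0.49% of all genes were. Il6, at 1.23 FPKM in Spic-/- and 0.146 FPKM in control without LPS, was among those under the 5 FPKM minimum, with a log2 ratio of 0.96. With LPS the log2 ratio between genotypes was 0.57 for Il1b and 0.80 for Il6.

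For each member, the most similar gene was sought among 7715 named genes by the distance between mean-centred log2 values over the 4 libraries. Il1rn, the interleukin 1 receptor antagonist gene, was closest to Cd14 (distance 0.20), followed by Gpr84 (0.22). Birc3 (0.07) and Clic4 (0.12) were closest to Tlr2, and the interferon-inducible genes Gbp4 (0.13) and Slfn1 (0.14) to Tlr1. Rnf126 (0.03) and Lgals3bp (0.08) were closest to Tlr6, and Ptgr2 (0.01) to Tlr4. Among endosomal genes, Coro2a (0.06) and Fam53c (0.10) were closest to Tlr3, Pkp4 (0.07) and Tlr6 (0.09) to Tlr7, and Wdr24 (0.02) and Arhgap11a (0.04) to Tlr8. Fam111a (0.04) and Dok2 (0.06) were closest to Tlr9, and Gnpda1 (0.03) and Plekho1 (0.05) to Tlr13. With 4 libraries such likeness is a description of these values.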

How the data were processed

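Libraries were made from total RNA with a stranded mRNA kit, per the labels' protocols. The authors deposited FPKM, 1 file per library, per the file headers. Cuffnorm 2.2.1, SAMtools 0.1.19, Bowtie2 2.2.3, TopHat2 2.0.13 and the build mm10 are named in the submitters' processing notes, with no role or setting. The annotation, read length and scaling are not given in the sources used here. No counts were on hand. Relative depth came from the spacing of low values (up to 0.3 FPKM). After scaling to it, 1916 of 2419 genes under 0.6 FPKM (79.2%) were whole multiples of a step fitted for each gene, within 0.02 of a step. Absolute depth came from 309 single-transcript genes with such a step, of which 173 lay within 2% of the peak. Ratios were taken as log2 of the deposited FPKM + 1. Fragments were then estimated with transcript lengths less 210 bases, which adds an error where the authors' gene models differ. Python 3.11.15, numpy 2.4.6, pandas 2.3.3 and scipy 1.17.1 were used. The steps were also run on simulated counts drawn with the same transcript lengths less 210 bases. Such a run cannot show errors from other gene models or from the authors' scaling. All members were named. Up to 3 genes per list were named by LPS ratio and up to 2 by genotype ratio, from genes at 1 FPKM or more in at least 1 library, and the 2 most similar genes per member, of which 1 for Tlr4 is not reported here. Lamp5, Mb21d1 and Ly6g were not found under these symbols. The members and lists were chosen with earlier results of these data known, and the motifs after the promoter letters had been read. Alternatives are given in the closing section.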

Additional observations from a re-analysis of the deposited data

Results flagged for a closer look

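Tlr4 had knockout to control log2 ratios on opposite sides of 0 in the 2 LPS states, −0.14 with LPS and 0.0065 without LPS. The counting interval of each FPKM ratio included 1, and the difference was not tested.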

How the results depend on the processing

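Of the single-gene values under the other pseudocounts and scalings, 187 kept their sign and side of the threshold, 4 were weaker and 3 stronger. Another 6, none of them past a threshold, changed sign. With upper-quartile scaling the genotype log2 ratio without LPS became −0.10 for Tlr4, −0.03 for Tlr8 and −0.07 for Tlr13, and that with LPS −0.05 for Tlr13. Tlr4 without LPS was −0.03 with median-ratio scaling, and the difference of LPS responses of Tlr9 was −0.07 with a pseudocount of 5 FPKM. For LPS in control, members lower numbered 2 with a minimum of 1 FPKM, with no minimum and after upper-quartile scaling, where Tlr9 (−1.86) joined Tlr13, and at 1.5-fold 5 were higher and 3 lower. For LPS in Spic-/-, members lower numbered 1 with a pseudocount of 5 FPKM or a minimum of 20 FPKM. For the genotypes without LPS, 0 members were higher after either scaling or at 3-fold, and with LPS 3 were higher at 1.5-fold. The surface minus endosomal difference for LPS was 2.57 in Spic-/- and 2.31 in control with a pseudocount of 5 FPKM, 2.22 and 2.53 with class means, 2.02 and 1.97 without Cd14, and 3.16 in control with a minimum of 20 FPKM. The ratio of class sums with LPS became 1.93 in Spic-/- and 2.09 in control without Cd14 and 5.05 and 5.30 with geometric means. Without LPS it became 0.291 and 0.265 without Cd14, and 0.916 in control with geometric means. The cause was not tested, beyond the genes each setting adds or removes. No paired analysis was possible because each group has 1 library. Depth limited Tlr9 with LPS most.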
